A study of Mus musculus with 6 samples.

Results

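A group of 10 genes of antigen presentation by the major histocompatibility complex (MHC) was followed in the retina of 5XFAD mice, which are transgenic and model Alzheimer's disease. They were taken by symbol from the deposited gene tables: H2-K1, H2-D1, B2m, Tap1, Tap2, Tapbp, Psmb8, Psmb9, Cd74 and H2-Ob. All 10 were found among the 19401 genes listed, and all 10 were among the 15537 genes tested. By the RefSeq annotation of GRCm38.p6, 8 of them lie in the MHC region of chromosome 17, from the start of Tapbp at 33919478 to the end of H2-D1 at 35267497, B2m lies on chromosome 2 and Cd74 on chromosome 18. RNA sequencing compared 3 libraries of control mice with 3 libraries of mice given efavirenz (EFV), an antiretroviral drug used here at a low dose as an activator of the enzyme CYP46A1. Mice of both groups carried hemizygous mutant human amyloid precursor protein and presenilin 1 transgenes on the B6SJL background, a cross of the C57BL/6 and SJL strains, and by the study's genotyping lacked the retinal mutations rd8 (of Crb1) and rd1 (of Pde6b). EFV was given in drinking water from 3 to 9 months of age, at 0.08 mg/kg of body weight by the sample labels, and the methods of the study give a slightly higher dose; control animals drank the Tween 80 vehicle. Each library was a pool of retina plus retinal pigment epithelium (RPE) from 5 to 6 mice aged 9 months. The study describes the mice as male. The replicate error below is thus that of pools, not of single animals.

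MHC class I molecules display peptides from inside the cell to CD8 T cells. The peptides are cut by the proteasome, whose catalytic subunits Psmb8 and Psmb9 replace constitutive ones in the immunoproteasome, are carried into the endoplasmic reticulum by the Tap1 and Tap2 transporter, and are loaded with the help of Tapbp (tapasin) onto a heavy chain such as H2-K1 or H2-D1 paired with B2m. MHC class II molecules display peptides taken up from outside to CD4 T cells and depend on the invariant chain Cd74, and the healthy retina is known for low MHC expression, mostly in microglia and vessels.

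Counts assigned to genes summed to 23455167 to 24590278 per library. The tissue carried its expected rod genes, with rod transducin (Gnat1) at 7555 to 8157 FPKM (a level scaled for gene length and library total). Some pools stood apart. Control 3 held lens RNA, the summed FPKM of 10 lens genes being 3157 against 27.1 to 149.9 in the other libraries. EFV 3 had low Y-linked RNA, Ddx3y being at 5.08 FPKM against 10.4 to 14.4 in the other libraries. Control 2 was low in RPE genes, the summed FPKM of 11 of them being 24.6 against 46.9 to 59.1 in the other libraries. The remaining gene of that list, Rlbp1, is shared with Müller cells and was at 208 to 232 FPKM, and with it the sums were 233 against 267 to 283. For the 10 genes, results that rest on these libraries are given with and without them below. Calls of RPE and lens genes are given with all libraries only.

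The levels of the 10 genes spanned a wide range. B2m was the most abundant, at 32.6 ± 2.17 FPKM in control and 33.8 ± 1.24 in EFV-treated mice (SD, n = 3 libraries, as for all group values). It was followed by Tapbp, H2-K1, H2-D1, Tap2, Psmb8, Psmb9, Cd74, Tap1 and H2-Ob. In this order H2-K1 and H2-D1 overlapped in their ranges over the 6 libraries, as did Psmb8 with Psmb9, Psmb9 with Cd74 and Cd74 with Tap1. Cd74 exceeded Tap1 in 2 of the 6 libraries, so these neighbours cannot be ordered, whereas B2m exceeded Tapbp and Tapbp exceeded H2-K1 in all 6. The class II genes among the 10 were in the lower part of the scale, Cd74 being at 0.82 to 2.03 FPKM and H2-Ob at 0.08 to 0.31 FPKM. In a bulk tissue, fewer cells of a type and less RNA per cell cannot be told apart.

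**Figure D1:**
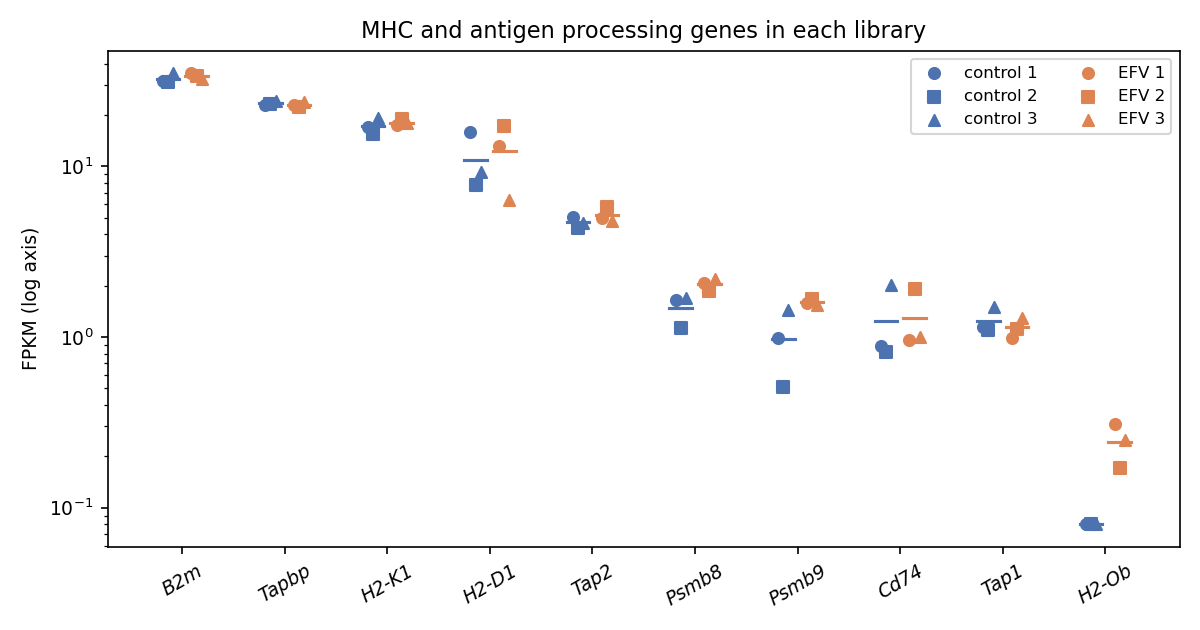
FPKM of each gene (log axis) in the 3 control and 3 EFV libraries, with group means as horizontal lines. Psmb8, Psmb9 and H2-Ob have all EFV points above all control points, H2-D1 and Cd74 scatter widely within both groups, and the other 5 genes overlap between groups.

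EdgeR's quasi-likelihood test, fitted across all genes, compared the groups. None of the 10 genes passed an adjusted p of 0.05 after adjustment over every tested gene by the Benjamini-Hochberg (BH) method (adjusted p = 0.999 for each), and none of the 15537 genes did (0% called). By edgeR 472 of the 15537 had an unadjusted p of 0.05 or less, and DESeq2 called 11 at the adjusted threshold. From a test based on the Poisson distribution, the study used an unadjusted p of 0.05 together with a minimum fold change of 7% in the higher group over the lower. Here the same limits are applied to the p of edgeR, a different test. They are called the limits below. H2-Ob passed them, higher in EFV-treated mice, and no gene of the 10 passed them in the lower direction. Over all genes tested 1.47% passed them as higher and 1.54% as lower, but H2-Ob met the count minimum of 10 only through the EFV libraries, so its call is not comparable with these shares. The 3 EFV libraries lay above the 3 control libraries for Psmb8, Psmb9 and H2-Ob and below them for none of the 10 genes, where 3.95% of all genes tested lay above and 4.18% below. For H2-Ob, with its low control counts, the count minimum fixed this separation in advance, so it is not comparable with these shares either. On the log2 scale the fold changes of the 10 genes, H2-Ob included, had a median of 0.087, and those of all genes tested had a median of 0.0012. Because the former holds H2-Ob, the medians are not comparable either.

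**Figure D2:**
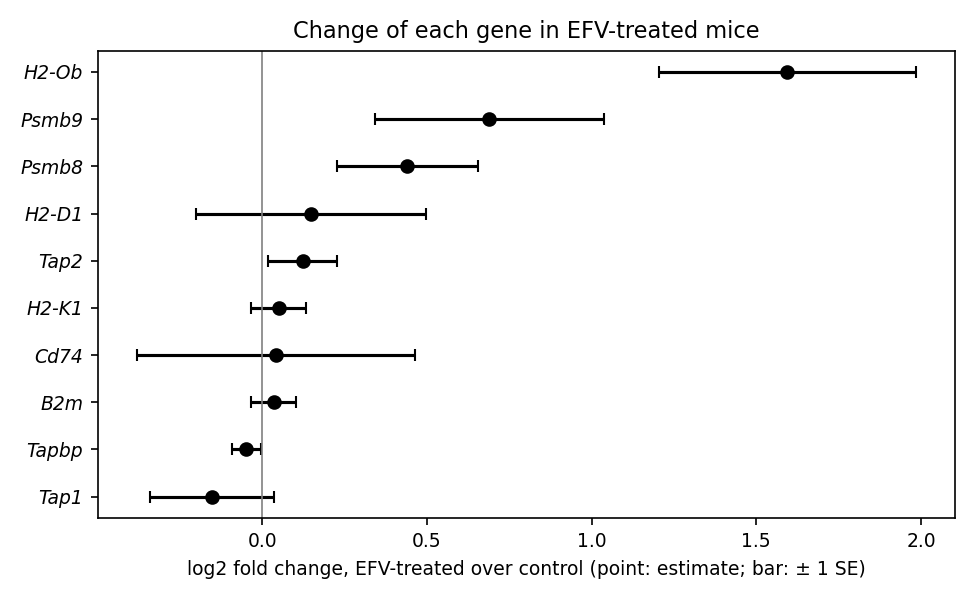
Log2 fold change of each gene, EFV-treated over control, with a bar of 1 standard error on each side. H2-Ob stands at 1.59, Psmb9 and Psmb8 at 0.69 and 0.44, and the other 7 genes lie between -0.15 and 0.15 with bars that reach or nearly reach 0.

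The class I heavy chains and their light chain, B2m, differed in how much they varied between pools. B2m was at 31.7, 31.0 and 35.1 FPKM in control 1, 2 and 3 and at 35.1, 33.8 and 32.6 FPKM in EFV 1, 2 and 3. H2-K1, a classical class I heavy chain, was at 17.01, 15.4 and 19.3 FPKM in control and 17.4, 18.8 and 17.9 FPKM in EFV libraries. The highest library was 1.13 times the lowest for B2m and 1.25 times for H2-K1, and the groups overlapped for both. Their log2 fold changes were 0.03 (SE 0.07) for B2m and 0.05 (SE 0.08) for H2-K1, the latter turning to -0.018 without control 2. H2-D1, the other classical heavy chain measured here, was at 15.8, 7.78 and 9.30 FPKM in control and 13.1, 17.3 and 6.33 FPKM in EFV libraries. Its highest library was 2.73 times its lowest, both of them EFV libraries, and its spread within groups was wider than that of 97.2% of all genes tested. Its log2 fold change was 0.15 (SE 0.35), and without control 2 or EFV 2 the sign turned, to -0.04 and -0.20. The authors' program divides reads that match several genes among them, and the counts of H2-K1 and H2-D1 were not whole numbers in any library. Of the 50-base windows in their reference transcripts, 8.79% of those in H2-K1 and 14.3% of those in H2-D1 were found in another gene. Summing H2-K1 and H2-D1 before the fit gave a log2 fold change of 0.09 (SE 0.16), and summing both with H2-Bl and the numbered H2-Q and H2-T genes gave 0.03.

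The promoters of H2-K1 and H2-D1 are shown because the genes are close relatives with unlike spread between pools, beside that of B2m, with which both heavy chains pair. They are from RefSeq on GRCm38.p6, and each covers 250 bases before to 50 bases after the annotated start, read 5′ to 3′ on the strand of the gene. Capitals mark the motifs searched on both strands: the kappa B site GGGATTCCC, the CCAAT box CCAAT, the interferon-stimulated response element GAAANNGAAA and the interferon-gamma activated site TTCNNNGAA. Only exact matches to these letters were marked, N being any base. Other forms of these sites would be missed, so an unmarked promoter is not shown to lack them.
H2-K1 (chr17:34000298-34000597, minus strand, the first of 2 entries): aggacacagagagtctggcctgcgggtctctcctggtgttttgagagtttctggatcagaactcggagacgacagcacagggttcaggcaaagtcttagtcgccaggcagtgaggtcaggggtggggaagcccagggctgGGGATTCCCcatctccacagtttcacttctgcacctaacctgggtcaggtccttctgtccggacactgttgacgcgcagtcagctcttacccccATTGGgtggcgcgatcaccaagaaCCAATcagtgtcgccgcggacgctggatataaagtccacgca
H2-D1 (chr17:35262844-35263143, plus strand): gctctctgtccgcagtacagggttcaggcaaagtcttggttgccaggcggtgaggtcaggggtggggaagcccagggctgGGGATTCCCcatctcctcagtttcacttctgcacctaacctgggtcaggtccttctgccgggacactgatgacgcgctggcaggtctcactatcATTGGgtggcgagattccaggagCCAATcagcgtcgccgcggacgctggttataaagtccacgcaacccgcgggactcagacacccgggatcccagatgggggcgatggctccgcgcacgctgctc
B2m (chr2:122147437-122147736, plus strand): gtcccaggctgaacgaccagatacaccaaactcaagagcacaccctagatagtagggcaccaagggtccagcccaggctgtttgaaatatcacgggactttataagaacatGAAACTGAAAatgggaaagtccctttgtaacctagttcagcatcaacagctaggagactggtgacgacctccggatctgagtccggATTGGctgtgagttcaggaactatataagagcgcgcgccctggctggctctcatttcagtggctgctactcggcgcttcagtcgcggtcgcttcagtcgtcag
Both heavy chain promoters held the kappa B site, which 0.353% of all 32851 promoters held, and the CCAAT box, which 37.4% held. The kappa B site started 94 bases before the first CCAAT box in both genes, and over the 179 bases aligned without gaps that end with this box 87.7% were identical. The B2m promoter held GAAACTGAAA at position -139 from the start, a form of the interferon-stimulated response element that 3.44% of all promoters held. No match overlapped another, 8 of the 10 genes had a promoter entry, and the matches were not tested for function.

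The spread of H2-D1 followed a library pattern that crossed the treatment groups. H2-D1 was high in control 1, EFV 1 and EFV 2 and low in control 2, control 3 and EFV 3. This pattern was chosen for description after the values were seen. H2-T22, a nonclassical class I gene, was at 2.59, 1.05 and 0.89 FPKM in control and 2.14, 2.05 and 0.23 FPKM in EFV libraries. H2-T24, another class I gene of the same region, was at 1.19, 0.62 and 0.42 FPKM in control and 1.19, 1.24 and 0.18 FPKM in EFV libraries. The same 3 libraries were high in each case. H2-T10, a close relative of H2-T22, ran the other way, at 8.79, 15.1 and 15.0 FPKM in control and 8.89, 10.4 and 18.8 FPKM in EFV libraries. The counts of H2-T22 and H2-T10 were not whole numbers in any library, whereas those of H2-T24 were. The part of reads divided between genes in these opposite runs was not tested. H2-Ab1, a class II beta chain, was at 1.33, 0.26 and 0.61 FPKM in control and 0.61, 1.02 and 0.15 FPKM in EFV libraries, so it was lowest in control 2 and EFV 3 but equal in control 3 and EFV 1. Other class I genes of the region, H2-T23, H2-Q4 and H2-Q7, did not share the split of H2-D1. H2-T23 was at 3.9, 3.96 and 3.82 FPKM in control and 3.56, 4.09 and 3.72 FPKM in EFV libraries. H2-Q10 ran the other way, like H2-T10. Within 3 megabases of H2-K1, 12 of 157 tested genes had an SD of log2 CPM above 0.5, against 762 of all 15537. Among 13173 genes tested with a mean of at least 1 FPKM, 284 had an SD of log2 CPM (counts scaled to the library total) above 0.5, and 35 of these (12.3%) shared the split of H2-D1 or its reverse, as 10.5% of all 13173 genes and 15.3% of the 603 of them on chromosome 17 did. Of the 110 variable genes with a position in the reference annotation 8 were on chromosome 17, and of the 13 with a position that shared the split or its reverse 4 were on chromosome 17: H2-D1 itself, H2-T22, Rps2 (a ribosomal protein gene) and Hmga1 (a chromatin protein gene). Rps2 was at 151.9, 91.8 and 70.7 FPKM in control and 134.7, 123.0 and 39.4 FPKM in EFV libraries. Of the 8 genes with a position that ran the other way 5 were lens crystallins, which were highest in control 3. As background, the 2 founder strains of B6SJL differ in their MHC haplotype on chromosome 17, and the reads were aligned to the reference of C57BL/6J. Which haplotypes each pool held was not measured here. EFV 3, lowest for H2-D1, H2-T22 and H2-T24, was also the library with low Y-linked RNA, and the log2 fold change of H2-D1 was 0.46 without it.

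**Figure D3:**
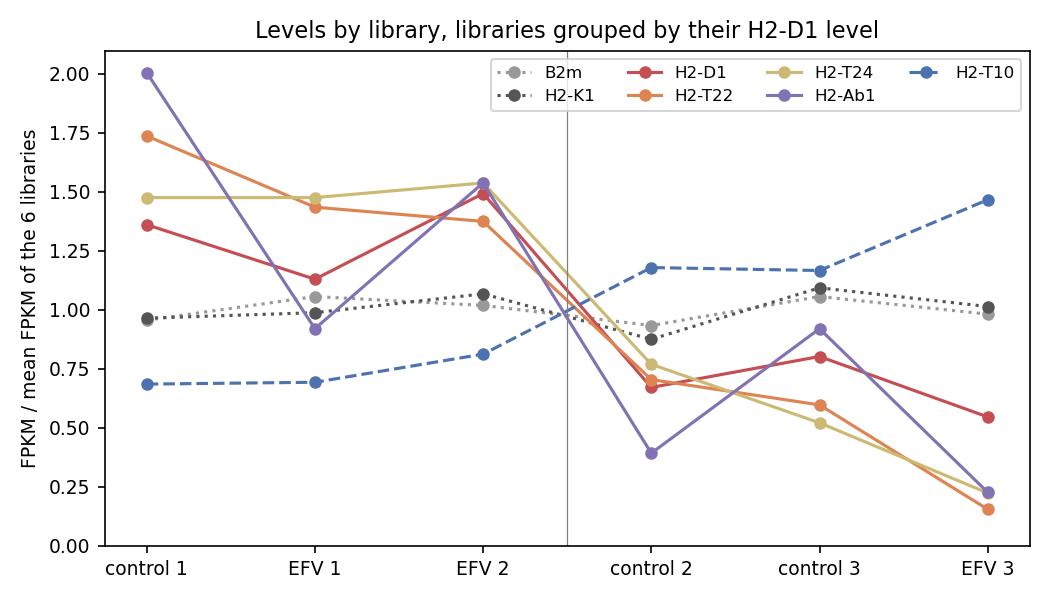
FPKM of 7 MHC genes in each library divided by the gene's mean over the 6 libraries, with the libraries where H2-D1 was high on the left and those where it was low on the right. H2-D1, H2-T22 and H2-T24 step down from left to right and H2-T10 steps up, while B2m and H2-K1 stay close to 1 throughout.

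The transporter and tapasin transcripts overlapped between the groups. Tapbp was at 23, 23.1 and 24.2 FPKM in control and 22.8, 22.3 and 23.7 FPKM in EFV libraries, and its spread within groups was wider than that of 6.02% of all genes tested. Its log2 fold change was -0.05 (SE 0.04). Tap2 was at 5.08, 4.34 and 4.66 FPKM in control and 4.95, 5.79 and 4.76 FPKM in EFV libraries, and Tap1 was at 1.14, 1.1 and 1.5 FPKM in control and 0.99, 1.12 and 1.30 FPKM in EFV libraries. Their log2 fold changes were 0.12 (SE 0.10) and -0.15 (SE 0.19), that of Tap1 being 0.0014 without control 3. The proteins work as a pair, but the Tap1 transcript was at 0.27 ± 0.050 of the Tap2 level in control and 0.22 ± 0.044 in EFV libraries (two-sided exact permutation test, p = 0.3, n = 3 per group).

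The immunoproteasome subunits Psmb8 and Psmb9 were higher in every EFV library than in every control library, by a margin that did not pass the limits. Psmb8 was at 1.64, 1.13 and 1.69 FPKM in control and 2.07, 1.87 and 2.2 FPKM in EFV libraries, from 31 to 62 counts per library. Its group means were 1.49 ± 0.310 and 2.05 ± 0.166 FPKM, and its log2 fold change was 0.44 (SE 0.21, unadjusted p = 0.0700 and adjusted p = 0.999 by edgeR). Psmb9 was at 0.98, 0.51 and 1.43 FPKM in control and 1.58, 1.66 and 1.55 FPKM in EFV libraries, from 9 to 30 counts. Its group means were 0.973 ± 0.460 and 1.60 ± 0.0569 FPKM, and its log2 fold change was 0.69 (SE 0.35, unadjusted p = 0.0784 and adjusted p = 0.999 by edgeR). The EFV libraries were close together for Psmb9, and the control libraries were spread, with control 2 far below the others. Without control 2, the library lowest in RPE genes, the log2 fold changes were 0.28 for Psmb8 (unadjusted p = 0.219 by edgeR) and 0.39 for Psmb9 (unadjusted p = 0.225 by edgeR). Without control 3, the library with lens RNA, that of Psmb9 was 1.067 and passed the limits (unadjusted p = 0.0171 by edgeR). With limma on log2(FPKM + 0.1) in place of counts both genes passed the limits, at 0.45 for Psmb8 (unadjusted p = 0.0269) and 0.76 for Psmb9 (unadjusted p = 0.0375). The part of RPE content in these differences was not tested.

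Each immunoproteasome subunit was also set against the constitutive subunit whose place it takes. Psmb8 was at 0.029 ± 0.0048 of the Psmb5 level in control and 0.040 ± 0.0057 in EFV libraries, and the groups did not overlap. With 3 libraries against 3 the exact permutation test cannot give a two-sided p below 0.1, and this ratio gave p = 0.1 (0.35 after BH adjustment over 7 ratios). Psmb9 was at 0.012 ± 0.0060 of the Psmb6 level in control and 0.021 ± 0.0033 in EFV libraries (exact permutation p = 0.2), the value of control 3 lying above that of EFV 3. Psmb10, the remaining inducible subunit, was at 0.071 ± 0.0064 and 0.077 ± 0.0090 of the Psmb7 level (exact permutation p = 0.4). The constitutive subunits were more than 10 times as abundant in both groups, with log2 fold changes of 0.0063 (SE 0.10) for Psmb5, -0.07 (SE 0.08) for Psmb6 and 0.05 (SE 0.05) for Psmb7.

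Psmb9 and Tap1 start 226 bases apart on opposite strands, and their promoter windows share 275 bases. The Psmb9 window is shown for this reason, read on the minus strand.
Psmb9 (chr17:34187281-34187580, minus strand): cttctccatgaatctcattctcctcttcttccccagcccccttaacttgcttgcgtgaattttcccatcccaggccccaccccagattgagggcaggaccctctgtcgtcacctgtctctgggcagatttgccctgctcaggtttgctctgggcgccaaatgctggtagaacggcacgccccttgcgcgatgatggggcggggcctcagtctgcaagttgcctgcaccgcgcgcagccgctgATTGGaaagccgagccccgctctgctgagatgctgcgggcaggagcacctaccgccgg
It held a CCAAT box at position -8 and none of the other motifs searched. The promoter of Psmb8 held TTCCCAGAA at position -97, a form of the interferon-gamma activated site that 8.30% of all promoters held. Psmb9 was at 0.76 ± 0.26 of the Tap1 level in control and 1.42 ± 0.21 in EFV libraries, a log2 difference of 0.96. This ratio was chosen after the values were seen, and its groups did not overlap (two-sided exact permutation test, p = 0.1, the smallest that it can give).

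**Figure D4:**
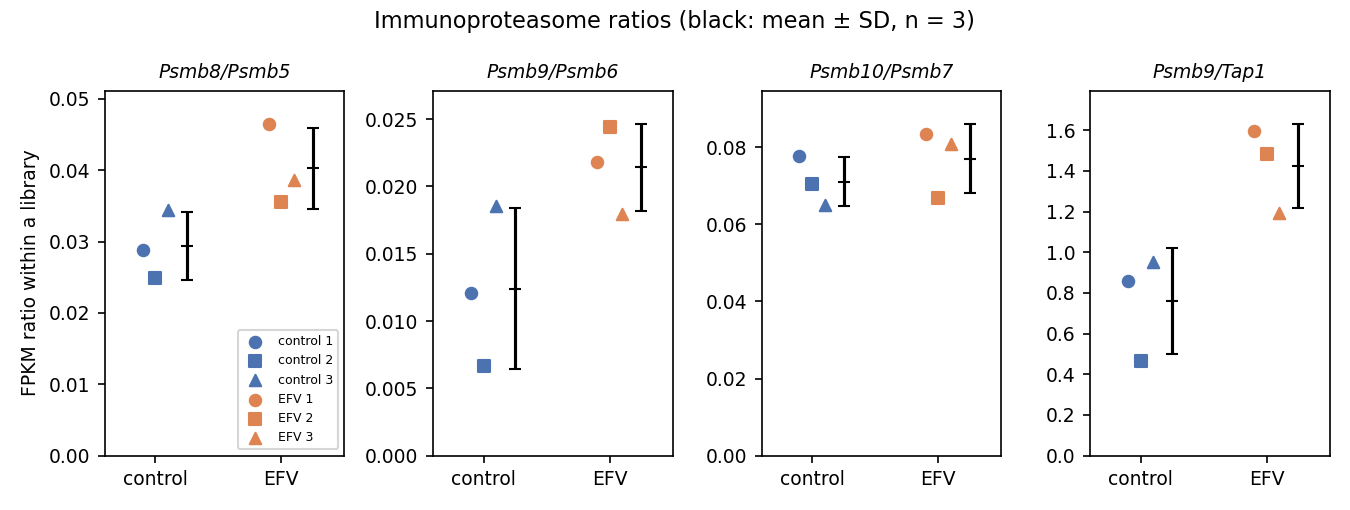
Ratio of FPKM within each library for Psmb8 over Psmb5, Psmb9 over Psmb6, Psmb10 over Psmb7 and Psmb9 over Tap1, with the mean and SD of 3 libraries in black. The groups do not overlap for Psmb8 over Psmb5 and Psmb9 over Tap1 and overlap for the other 2 ratios.

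The class II genes were scarce. Cd74, the invariant chain that fills the groove of new class II molecules, was at 0.88, 0.82 and 2.03 FPKM in control and 0.96, 1.91 and 1.00 FPKM in EFV libraries. It was high in control 3 and EFV 2 and between 0.82 and 1.00 FPKM in the other 4 libraries, and the groups overlapped. Its log2 fold change was 0.04 (SE 0.42), and it ranged from -0.38 without EFV 2 to 0.59 without control 3. H2-Ob, the beta chain of the nonclassical molecule H2-O that restrains peptide loading by H2-DM, had 5 counts in each control library and 20, 11 and 16 counts in EFV 1, 2 and 3. It was at 0.08 FPKM in every control library and at 0.31, 0.17 and 0.25 FPKM in EFV libraries. H2-Ob reached the count minimum only through the EFV libraries, so it could not have been tested without being higher there, and the values that follow carry this limit. Its fold change was 3.02 (unadjusted p = 0.00272 and adjusted p = 0.999 by edgeR), or 1.59 on the log2 scale. An approximate interval of 1.78 to 5.13 came from the standard error and a normal distribution, which makes it too narrow for so few libraries. With limma on log2(FPKM + 0.1), where the pseudocount exceeds the control level, the log2 fold change was 0.91. Leaving out each library in turn, with H2-Ob kept in the test, gave log2 fold changes from 1.39 to 1.79, which are no independent support. H2-Ob is also on a list that the study chose from these samples, which is therefore not independent evidence of its direction. Its partner chain H2-Oa had too few reads to be tested, at 0, 0 and 0.12 FPKM in control and 0.04, 0.16 and 0.08 FPKM in EFV libraries. The promoter of H2-Ob is shown because it is the gene that passed the limits.
H2-Ob (chr17:34238655-34238954, plus strand): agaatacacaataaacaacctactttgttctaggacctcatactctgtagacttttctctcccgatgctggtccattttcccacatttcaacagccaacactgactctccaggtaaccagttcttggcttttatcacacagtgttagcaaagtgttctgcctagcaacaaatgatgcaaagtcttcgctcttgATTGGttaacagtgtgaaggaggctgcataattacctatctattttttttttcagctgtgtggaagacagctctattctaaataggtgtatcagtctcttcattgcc
It held a CCAAT box at position -57 and none of the other motifs searched.

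The rest of the pathway was read from lists of related genes. Of 53 tested genes for other class I chains, peptide supply and loading, other class II genes and transcription of MHC genes, 26 were higher and 27 lower, and the median was -0.0027 on the log2 scale. The limits were passed by 2 of the 53 as higher, Psme2 and Irf9, and by 0 as lower. Among other class I heavy chains 13 were tested, 5 higher and 8 lower, and none passed. The most abundant of these were H2-T10 and H2-Q4, the latter at 8.34 ± 0.94 and 8.06 ± 0.30 FPKM. Among genes of peptide supply and loading 12 were tested, 5 higher and 7 lower, of which the most abundant were the chaperones Calr, at 193 ± 12.9 and 180.2 ± 13.7 FPKM, and Canx, at 73.5 ± 2.66 and 73.2 ± 2.33 FPKM. Psme2, a subunit of the PA28 activator that caps the proteasome, was at 18.2, 18.2 and 19.7 FPKM in control and 19.7, 22.7 and 23.5 FPKM in EFV libraries, with a log2 fold change of 0.18 (SE 0.07, unadjusted p = 0.0371 by edgeR). Its groups overlapped between control 3 and EFV 1, and it did not pass without control 1, control 2, EFV 2 or EFV 3 (log2 fold changes of 0.15 to 0.17). The 7 constitutive proteasome genes gave 3 higher and 4 lower, and none passed. Among other class II chains and processing genes 11 were tested, 4 higher and 7 lower, none past the limits. The most abundant were the lysosomal proteases Lgmn, at 95.2 ± 4.32 and 92.7 ± 6.23 FPKM, and Ctsl, at 21.5 ± 3.65 and 21.8 ± 0.59 FPKM, which many cell types use. H2-DMa, a chain of H2-DM, was at 2.33 ± 0.30 and 2.47 ± 0.37 FPKM, above the means of Cd74 and H2-Ob.

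Among regulators of MHC transcription 17 were tested, 12 higher and 5 lower. Irf9, the DNA-binding part of the factor that answers type I interferon, was at 1.75, 2.82 and 1.90 FPKM in control and 3.85, 2.96 and 3.88 FPKM in EFV libraries. The groups did not overlap and the log2 fold change was 0.72 (SE 0.19, unadjusted p = 0.0044 and adjusted p = 0.999 by edgeR). It ran from 0.59 to 0.95 without each library in turn, all past the limits, which is no independent support. Like H2-Ob, Irf9 is on the list that the study chose from these samples. Stat2, a partner of Irf9 in that factor, had a log2 fold change of 0.07 (SE 0.06). Nlrc5, the main activator of class I genes, was at 0.08 to 0.20 FPKM, and Ciita, that of class II genes, was at 0.02 to 0.08 FPKM and was not tested. The most abundant regulators were Nfyc and Nfyb, subunits of the factor that binds the CCAAT box, with log2 fold changes of 0.01 (SE 0.05) and -0.02 (SE 0.06).

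Of 27 tested interferon receptor and response genes 17 were higher and 10 lower, the median being 0.056 on the log2 scale. Oasl2, an interferon-induced antiviral gene, passed the limits at 0.32 (SE 0.11, unadjusted p = 0.0185 by edgeR) and not without control 1, control 2 or EFV 1 (0.26 to 0.28). Isg15, a ubiquitin-like gene induced by interferon and named here after its values were seen, was at 0.99, 0.86 and 1.06 FPKM in control and 1.99, 1.42 and 1.19 FPKM in EFV libraries (unadjusted p = 0.0585 by edgeR). Other response genes were lower in EFV libraries without passing the limits, such as Irf7 at -0.16 (SE 0.11). The summed FPKM of the list was 134 to 138 in control and 140.2 to 148.8 in EFV libraries, a sum in which the kinase Jak1 and the receptor Ifngr1 weighed most.

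Markers of cells that carry MHC molecules were read in the same libraries. Of 16 tested genes of microglia and macrophages 8 were higher and 8 lower and none passed the limits, and the summed level of the list was 42.6 to 44.1 FPKM in control and 41.9 to 43.8 in EFV libraries. Of 13 tested endothelial and pericyte genes 2 were higher and 11 lower, none past the limits, with sums of 76.1 to 83.4 and 75.4 to 79.7 FPKM. Dendritic cell genes summed to 2.38 to 2.66 and 2.44 to 2.78 FPKM, with 4 tested. No B cell gene had enough reads to be tested, so B cells, in which H2-Ob is best known, gave no marker to set beside it. The 6 B cell genes with a row summed to 0.16 to 0.32 FPKM in control and 0.19 to 0.37 in EFV libraries, and Cd79a, Pax5, Blk and Ighm had no row and were not analysed here. Of the T cell and natural killer cell genes 8 had a row and 1 was tested, and Cd3g, Trac, Trbc2 and Nkg7 were likewise not analysed here. Of 12 RPE genes 10 were higher and 2 lower in EFV libraries, and Rpe65, Lrat and Kcnj13 passed the limits as higher, whereas all 9 lens genes tested passed as lower, through control 3. The part of these tissue differences in the values of the 10 genes was not tested.

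The genes whose pattern over the 6 libraries lay nearest to that of a member are given by the root mean square difference of standardised log2 CPM, among 13173 genes with a mean of at least 1 FPKM. For B2m they were Arhgap27 (0.119), Slc44a1 (0.131) and Med9 (0.161). For H2-D1 they were Ajuba (0.162), Nectin4 (0.163) and Cyp4f13 (0.177), of which Cyp4f13 lies on chromosome 17. For Cd74 they were Tmem132b (0.131), Ccne2 (0.153) and Snrpf (0.161). For H2-Ob they were Ric8b (0.119), Kctd4 (0.127) and Hs3st2 (0.142). The class II chains H2-Ab1, H2-Aa and H2-Eb1 had means below 1 FPKM, so they could not be among the genes nearest to Cd74. The measure takes no account of the size of the variation, and the genes named as nearest vary much less between libraries than H2-D1, Cd74 and H2-Ob do.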

How the data were processed

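RNA from 3 control and 3 EFV-treated pools was measured by RNA sequencing at BGI. Per the methods of the study, the authors aligned filtered reads to mm10 with Bowtie2 v2.2.5 and estimated an expected count for each gene with RSEM v1.2.12, and the deposited FPKM values are these counts divided by gene length and library total. HISAT2 2.0.4 is named in the submitters' processing notes without a role. The annotation release and strandedness are not given in the sources used here. A gene missing from a library's file was taken as 0 there.

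Expected counts were rounded to whole numbers, and genes that reached 10 counts in 3 or more of the 6 libraries were fitted with edgeR 4.0.16 (R 4.3.3) after TMM scaling (factors 0.984 to 1.01), two-sided, with BH adjustment over all genes. The biological coefficient of variation was 0.0983, and counting error is largest for genes near this minimum. Non-overlap was read from TMM-scaled CPM, and ratios from FPKM as deposited. Alternatives were other scalings and filters, DESeq2 1.42.0, limma 3.58.1, a Poisson model, a replicate block, and leaving out each library. The methods were tested on simulated data. No 2 libraries agreed within sampling noise, so all 6 were kept as separate samples. No protein sequences were used.

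The 10 genes and the lists were chosen with earlier results of these data known, so no p was computed over a list. Named genes were the 10 members, in other lists those past the limits and the 2 most abundant by mean FPKM, and the 3 nearest patterns of H2-D1, B2m, Cd74 and H2-Ob. Other names were chosen after their values were seen.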

Additional observations from a re-analysis of the deposited data

How the results depend on the processing

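With DESeq2 the genes at an adjusted p of 0.05 numbered 11, those past the limits 269 (467 with edgeR) and those of the 53 pathway genes 1, and a Poisson model, with counting error as its sole error, gave 2043, 2305 and 7. The members past the limits numbered 3 with limma on log2(FPKM + 0.1), on log2(FPKM + 1) and without a filter, where 489 and 494 of 15537 genes and 634 of 19401 passed, and 4 with the Poisson model, in place of 1. Scaling by total counts only gave 288 higher and 159 lower genes, in place of 228 and 239. Leaving out each library in turn gave 0 to 1 genes at the adjusted threshold, 389 to 576 past the limits, 1 to 2 members past the limits, 1 to 4 pathway genes past the limits and 3 to 6 members with groups that did not overlap, the highest counts of members being without control 3. Without control 1 there were 5 such members and without EFV 3 there were 4. Each of these counts of members holds H2-Ob, whose separation was fixed by the count minimum. With a library fewer the groups of all genes also overlap less often, 15.9% to 18.9% of them lying apart in these leave-outs against 8.14% with 6 libraries.

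Signs turned in leave-outs for H2-K1 (-0.018 to 0.14), H2-D1 (-0.20 to 0.50), Tap1 (-0.25 to 0.0014), Cd74 (-0.38 to 0.59), the ratio of H2-K1 plus H2-D1 over B2m (-0.093 to 0.18) and that of H2-D1 over H2-K1 (-0.24 to 0.45), and Cd74 was -0.17 without control 1 and without control 2. The log2 difference without single libraries ran from 0.34 to 0.58 for Psmb8 over Psmb5, 0.51 to 1.25 for Psmb9 over Psmb6 and 0.64 to 1.16 for Psmb9 over Tap1. No other sign turned among the 10 genes and 7 ratios under the alternatives run.

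With the replicate block 514 genes passed the limits, and 1 member did, H2-Ob, at 1.58, a gene that met the count minimum only through the EFV libraries. Deviations of log2 CPM from the group mean were correlated between control and EFV libraries, which is not the correlation of the libraries themselves. For libraries with the same number the values were 0.12, 0.083 and 0.099. The deviations of each library correlated best with those of its own number, a hint from the data. Deviations cancel out within a group, so these correlations constrain each other, and the labels do not say what a number shares. H2-Ob and Psmb9 rest on 5 to 30 counts per library, where counting error is large.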
